A study of Rattus norvegicus with 10 samples.

Results

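The genes described here encode the subunits of the mitochondrial respiratory chain and of ATP synthase, measured in whole mammary gland of weanling rats. They were chosen by symbol alone: every probe set that the platform annotation assigns to a single gene was kept if that gene's symbol begins with Nduf, Uqcr, Cox4 to Cox8 or Atp5, or is Sdha, Sdhb, Sdhc or Sdhd. The rule found 89 probe sets of 84 genes, among 10411 genes named by single-gene probe sets, and the brightest probe set stood for each gene. Of the 84 genes, 70 were widely expressed subunits, 6 were tissue-specific isoforms and 8 were assembly factors, an inhibitor, a supercomplex factor or a pseudogene. A further 7 probe sets matched by symbol but named several genes and were left out, Cox7a2 among them.

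The RNA came from female rats of the SD strain at postnatal day 21. They were exposed from gestation day 4 to an AIN-93G diet made with casein, a milk protein, or to the same diet made with soy protein isolate, with 5 arrays per diet. All animals shared strain, age and tissue, and no transgene or drug was named. The labels mention RNA pools, with 3 cRNA targets prepared from each, so p-values measure only the spread between these arrays, which may be technical. Arrays are named by diet and the number in the label, for example casein 6 or soy 147.

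Values are log2 of the MAS5 signal. Array medians ranged from 256.4 to 286.1 signal units, and the number of arrays limits the precision. The 11 adipocyte markers on the array had a mean log2 signal of 10.83 to 11.90, as a fat pad would give, but the preparations differed in their other contents. Of 26 skeletal muscle markers, 25 were on the array, and their summed signal ran from 4059 to 1.911e+05 in casein and from 3754 to 1.954e+05 in soy, with 0 markers at a signal of 0. The summed signal of 11 luminal epithelial markers ran from 1094 to 1.315e+04 in casein and from 1180 to 8038 in soy. The mean log2 signal of the 13 lymph node and lymphocyte markers bright enough to be tested was 6.60 in casein 6 and 6.48 in soy 149. In the other arrays it was 9.14 to 9.92. Differences of this kind in whole tissue cannot separate fewer cells of a type from less RNA per cell.

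The respiratory chain moves electrons from NADH (complex I) and succinate (complex II) through coenzyme Q to complex III, then through cytochrome c to oxygen at complex IV, cytochrome c oxidase. Complexes I, III and IV pump protons across the inner mitochondrial membrane, and ATP synthase uses the returning protons to make ATP. Most subunits are encoded in the nucleus and made in nearly all cells, while heart and skeletal muscle replace some subunits of complex IV with forms of their own: Cox6a2, Cox7a1 and Cox8b. Brown fat also carries some of these forms, and the mammary gland is built on a fat pad that lies under the skin and over muscle.

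RefSeq promoters of 300 bases, from 250 bases before to 50 after the start of each gene (assembly GRCr8), were held for 76 of the 84 genes. The muscle forms and the widely expressed subunits are shown because their signals differed so widely in pattern across the arrays. In the muscle forms, capitals mark the E-box CAGCTG, which reads the same on both strands, and in Cox6a2 also the MEF2 core CTATTTNTA, found on the other strand. E-boxes are bound by myogenic factors such as MyoD, and MEF2 is a muscle transcription factor. The windows lie at chr1:192219667-192219966 (minus strand, Cox6a2), chr1:205408224-205408523 (minus strand, Cox8b) and chr1:94568966-94569265 (plus strand, Cox7a1).
Cox6a2: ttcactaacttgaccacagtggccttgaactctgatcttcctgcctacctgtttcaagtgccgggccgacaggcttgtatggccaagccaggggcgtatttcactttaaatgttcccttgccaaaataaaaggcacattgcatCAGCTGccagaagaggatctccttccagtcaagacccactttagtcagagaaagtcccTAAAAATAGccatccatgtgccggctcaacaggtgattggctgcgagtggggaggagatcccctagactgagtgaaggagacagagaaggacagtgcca
Cox8b: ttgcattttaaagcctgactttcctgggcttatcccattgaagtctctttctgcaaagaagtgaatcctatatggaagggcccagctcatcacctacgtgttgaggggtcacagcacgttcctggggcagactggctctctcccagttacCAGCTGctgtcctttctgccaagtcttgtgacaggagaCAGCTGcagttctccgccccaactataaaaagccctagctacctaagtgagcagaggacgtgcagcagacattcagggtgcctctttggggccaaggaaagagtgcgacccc
Cox7a1: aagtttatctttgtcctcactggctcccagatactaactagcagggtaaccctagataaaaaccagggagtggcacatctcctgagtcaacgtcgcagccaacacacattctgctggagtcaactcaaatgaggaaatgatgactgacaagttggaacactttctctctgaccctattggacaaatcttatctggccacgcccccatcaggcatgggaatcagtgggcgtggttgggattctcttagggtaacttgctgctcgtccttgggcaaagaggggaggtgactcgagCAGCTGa
The E-box began at position -107 from the start in Cox6a2, at -100 and -62 in Cox8b, and at 43, within the transcribed part, in Cox7a1. An E-box was found in 12 of 76 promoters of the respiratory genes (15.8%), against 15.1% of all 33469 promoters and 15.4% of 6026 promoters of genes tested on these arrays, so the match is common. The MEF2 core was found in 1 of the 76 promoters, that of Cox6a2 (1.32%), against 1.34% and 0.73%.

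The promoters of Ndufa6 and Atp5me are shown because they were the 2 of the 76 that held all of the NRF1, GABPA and YY1 motifs, so they are not typical of the widely expressed subunits. In Ndufa6, an accessory subunit of complex I (chr7:115750268-115750567, minus strand), and Atp5me, membrane subunit e of ATP synthase (chr14:1464610-1464909, plus strand), capitals mark the NRF1 core GCGCANGC, the GABPA motif CCGGAAG and the YY1 motif AAGATGGC on either strand. The proteins that bind these motifs are known regulators of nuclear genes for mitochondria.
Ndufa6: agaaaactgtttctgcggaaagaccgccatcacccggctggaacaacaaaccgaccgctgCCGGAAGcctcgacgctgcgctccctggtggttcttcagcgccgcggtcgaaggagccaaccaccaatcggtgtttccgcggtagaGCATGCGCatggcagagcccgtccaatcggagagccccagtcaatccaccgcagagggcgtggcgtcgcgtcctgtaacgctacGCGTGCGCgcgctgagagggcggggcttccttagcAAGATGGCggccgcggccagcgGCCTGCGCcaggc
Atp5me: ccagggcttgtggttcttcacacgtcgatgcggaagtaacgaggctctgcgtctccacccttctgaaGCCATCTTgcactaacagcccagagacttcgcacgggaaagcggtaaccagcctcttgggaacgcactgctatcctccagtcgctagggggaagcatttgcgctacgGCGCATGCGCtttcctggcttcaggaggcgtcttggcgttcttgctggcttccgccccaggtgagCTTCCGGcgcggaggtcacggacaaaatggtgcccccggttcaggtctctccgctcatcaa
Of the 76 promoters, 17 held the YY1 motif (22.4%), against 3.17% of all promoters and 6.49% of those of tested genes. The NRF1 core was found in 22 (28.9%, against 8.98% and 21%) and the GABPA motif in 21 (27.6%, against 8.75% and 18.9%). The ERR alpha motif TCAAGGTCA was found in Atp5mc3 and Sdhd, 2 of 76 promoters (2.63%, against 0.433% and 0.166%). None of the motifs searched was found in 24 of the 76 promoters, and 8 widely expressed subunits, Cox4i1 and Uqcrfs1 among them, held the same E-box as the muscle forms. No motif searched contains another, though matches can overlap in the sequence. A match describes letters in a window and not a bound site.

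The muscle forms of complex IV followed the muscle signal of each array. Arrays were ordered by Myl11, the regulatory light chain of fast skeletal muscle myosin. Its log2 signal was 14.39 in soy 157, 13.80 in casein 6, 13.76 in soy 149 and 12.96 in soy 147. It was 8.14 in soy 155 and 7.47 in casein 7, and 3.15 to 3.42 in casein 20, casein 10, casein 18 and soy 159. Arrays with strong muscle signal thus came from both diets, 1 from casein and 3 from soy.

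Cox6a2, the heart and skeletal muscle form of subunit 6A, had log2 signals of 5.66, 3.99, 4.87, 11.91 and 6.54 in casein 10, 18, 20, 6 and 7, and of 9.77, 10.72, 6.85, 11.24 and 4.64 in soy 147, 149, 155, 157 and 159. Its 4 highest arrays were the 4 with the highest Myl11, and the diets overlapped from end to end. Cox8b, the muscle form of subunit 8, read 3.83, 2.51, 3.58, 11.73 and 3.42 in the same casein arrays and 9.02, 10.34, 3.86, 10.82 and 3.02 in the same soy arrays. It was high in the same 4 arrays and low in the other 6. Cox7a1, the muscle form of subunit 7A, read 5.33, 5.26, 4.52, 8.32 and 5.12 in casein and 6.58, 7.63, 6.88, 7.92 and 4.42 in soy. It differed from the other muscle forms in that soy 155, with moderate Myl11, lay above soy 147.

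All 3 muscle forms were highest in casein 6. Myl11 was highest in soy 157. The mean log2 signal of the 17 muscle markers bright enough to be tested was also highest in casein 6 (12.97), ahead of soy 157 (12.71). Of the 25 muscle markers on the array, 15 were highest in casein 6, from the slow fibre gene Myh7 to the fast fibre gene Myh4, and 10 in soy 157, Myl11, Acta1 and Ckm among them. The brown adipocyte list, another possible source of these forms, had 2 genes above the filter for dim probe sets, and they went opposite ways: Cpt1b, a gene also made in muscle, was highest in casein 6 (10.21), while Cidea was lowest there (8.94, in a range up to 10.37). Ucp1, the defining gene of brown fat, lay under the filter, at 6.18 to 7.37, and read 6.26 in casein 6. The part of either cell type in the isoform signals was not tested.

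On the soy minus casein scale, Cox6a2 differed by 2.05 ± 1.56 (SE, n = 5 per diet, limma adjusted p = 0.98), and the difference fell short of the spread within each diet (SD 3.12 in casein and 2.81 in soy). It passed the filter for dim probe sets, a mean log2 signal of 7.47, only through the arrays rich in muscle, with a mean of 7.62. Cox8b and Cox7a1 lay below that filter and were not tested, and their differences were 2.40 and 0.98. Leaving out casein 6 moved the Cox6a2 difference to 3.38, that of Cox8b to 4.08 and that of Cox7a1 to 1.63. With Myl11 as a covariate these differences turned to -0.58, -0.78 and -0.20.

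**Figure D1:**
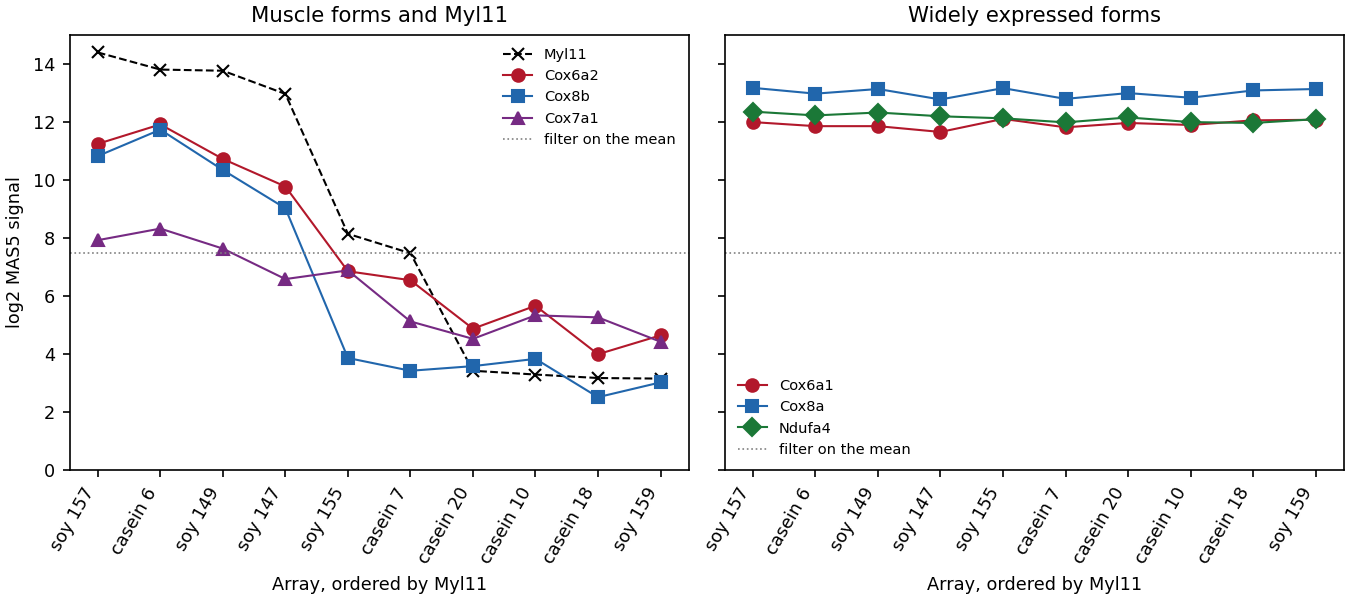
Log2 MAS5 signal (vertical axis) of the muscle forms with Myl11 (left panel) and of the widely expressed Cox6a1, Cox8a and Ndufa4 (right panel) in each of the 10 arrays (horizontal axis), named by diet and ordered by Myl11. The dotted line marks the filter of 7.47 on the mean. Cox6a2 and Cox8b are high in the first 4 arrays, from 9.02 to 11.91, while Cox6a1 and Cox8a stay between 11.65 and 13.17 throughout.

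The widely expressed partners did not share this pattern. Cox6a1 read 11.89, 12.05, 11.96, 11.85 and 11.81 in casein 10, 18, 20, 6 and 7 and 11.65, 11.85, 12.10, 11.99 and 12.07 in soy 147, 149, 155, 157 and 159. Its lowest value was in soy 147, an array with strong muscle signal. Cox8a read 12.83, 13.08, 12.99, 12.97 and 12.79 in casein and 12.77, 13.13, 13.16, 13.17 and 13.13 in soy. Soy 147 again stood below the other soy arrays, which lay within a narrow band above all casein arrays. The soy minus casein differences were 0.02 ± 0.10 for Cox6a1 and 0.14 ± 0.10 for Cox8a (SE, n = 5 per diet, limma adjusted p = 1 and 0.98).

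Ndufa4, first assigned to complex I and now placed in complex IV, was the only widely expressed subunit tested whose 4 highest arrays were those with the highest Myl11. It read 11.99, 11.96, 12.15, 12.22 and 11.98 in casein and 12.19, 12.32, 12.12, 12.35 and 12.09 in soy, so that the 4 arrays exceeded the rest by a small margin. Its paralog Ndufa4l2, a gene induced by hypoxia, lay between 7.42 and 8.05 with no such order. Across the probe sets tested, 2.14% had these 4 arrays as their highest and 2.15% as their lowest. Among the 81 respiratory genes tested the counts were 2 (Cox6a2 and Ndufa4) and 0. Cox6a2 passed the filter only because of these arrays, and Cox8b, with the same pattern, lay below it, so nothing is read from this count.

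Isoforms of other tissues showed no order by muscle signal. Cox4i2, a form of subunit 4 found mainly in lung, read 8.95, 8.75, 8.72, 8.61 and 8.83 in casein and 8.80, 9.08, 8.73, 8.63 and 8.46 in soy. Casein 6 and soy 157, both rich in muscle signal, were among its lower arrays. Cox6b2, the testis form of subunit 6B, was dim, at 4.94 to 6.82, and lay below the filter. Soy minus casein was -0.03 ± 0.12 for Cox4i2 and 0.09 ± 0.14 for Ndufa4l2 (SE, n = 5 per diet, limma adjusted p = 1 and 0.99).

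The 70 widely expressed subunits varied together from array to array, with casein 6 high and casein 7, casein 10 and soy 147 low. To show this, each gene's mean over the 10 arrays was subtracted and the deviations were averaged over genes. The mean deviation was 0.26 in casein 6, where 63 of the 70 genes lay above their own median. It was -0.28 in casein 7 with 3 of 70 above, -0.19 in casein 10 with 4 above, and -0.18 in soy 147 with 8 above. These 3 arrays include 1 with strong, 1 with moderate and 1 with little muscle signal.

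The remaining 6 arrays lay between -0.01 and 0.10: casein 18 at -0.01, casein 20 at 0.04, soy 155 at 0.07, soy 149 and soy 159 both at 0.09, and soy 157 at 0.10. Casein 6 held the highest value of 35 of the 70 genes (50%) and casein 7 the lowest value of 36 (51.4%). Over all probe sets tested these shares were 13.4% and 6.27%. The SD over arrays was 0.168 for the mean deviation of the 70 subunits and had a median of 0.201 for a single one of them. Over all 9520 probe sets tested, the mean deviation ran from -0.06 to 0.03, which the scaling of every array to one trimmed mean holds near 0. The extremes stayed under other scaling: casein 6 was highest and casein 7 lowest with quantile normalization (0.23 and -0.23) and with median centring (0.33 and -0.35). The places of arrays in between depended on scaling. Soy 157 stood at 0.09 with quantile normalization and 0.01 with median centring, and soy 149 at 0.03 and 0.13.

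**Figure D2:**
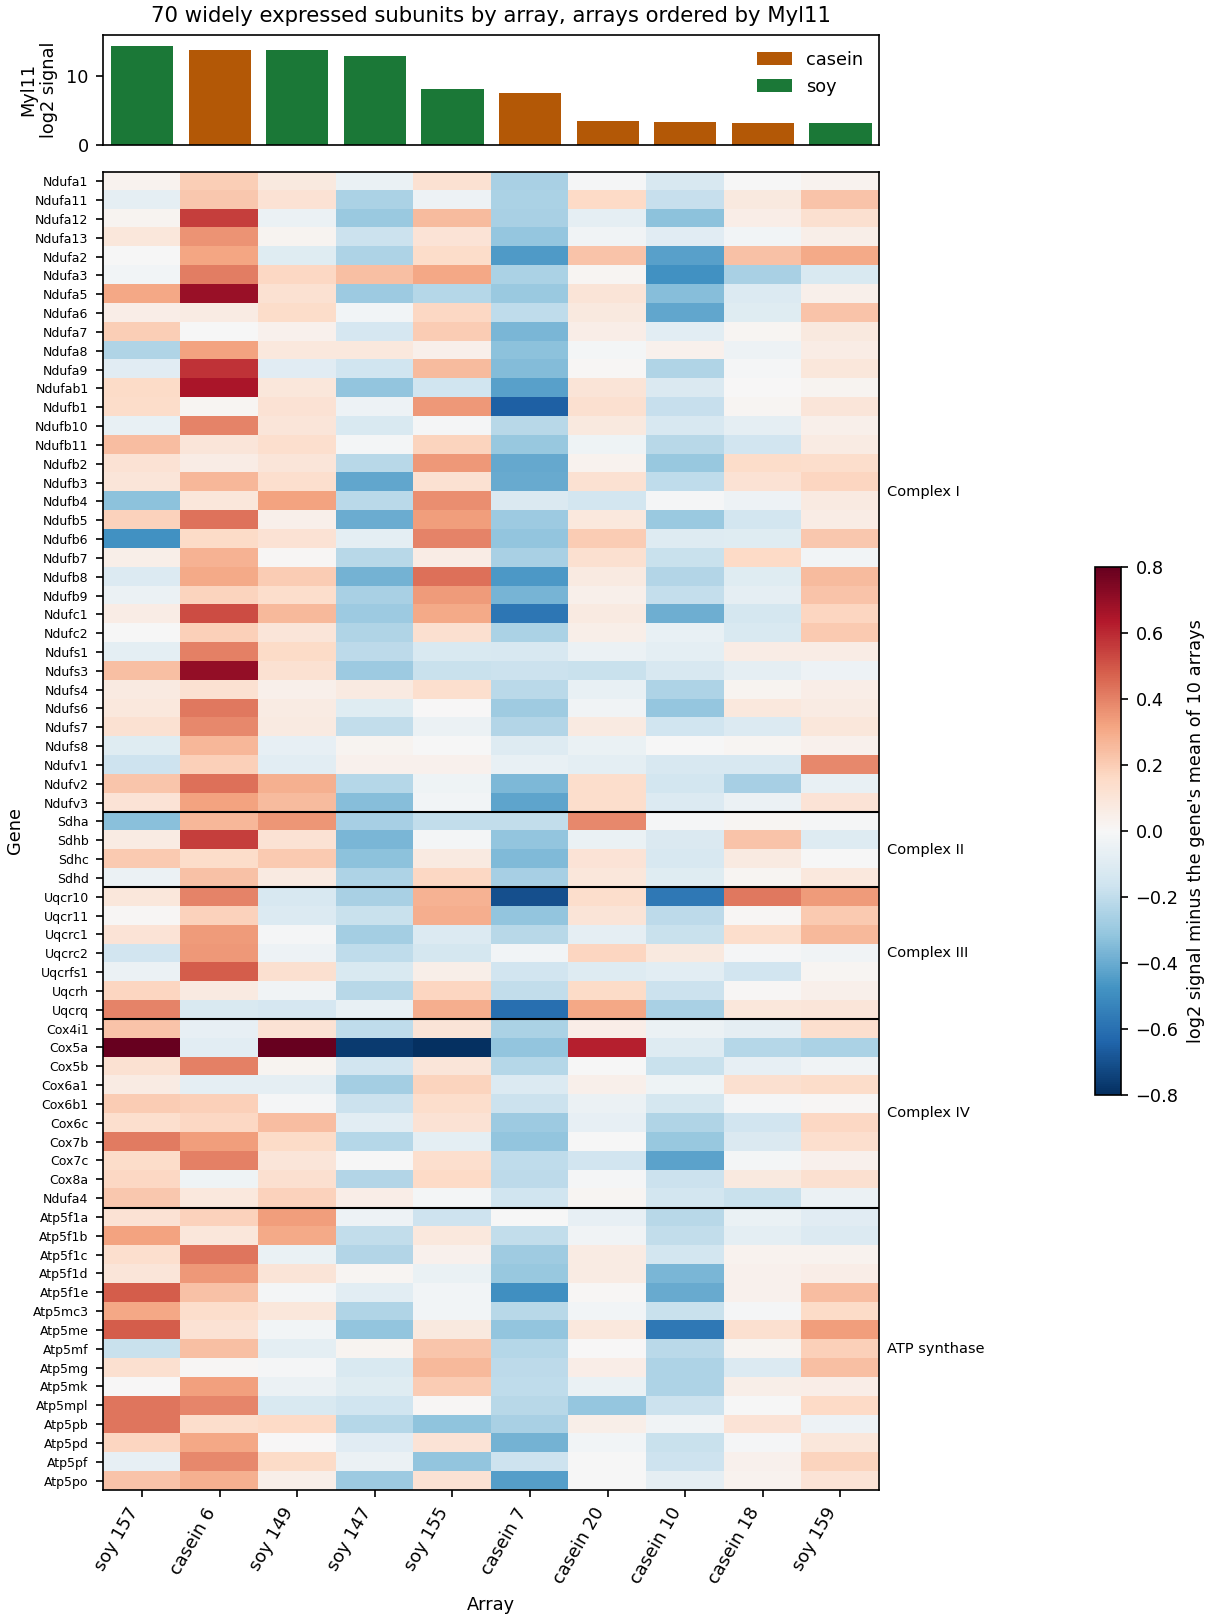
Log2 signal minus the gene's own mean of 10 arrays (colour, drawn from -0.8 to 0.8) for 70 widely expressed subunits (rows, grouped by complex) in 10 arrays (columns, ordered by the Myl11 log2 signal drawn as bars on top). Casein 6 is red for most rows and casein 7, casein 10 and soy 147 are blue for most rows, while Cox5a, whose values run past the colour scale, goes its own way.

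The complexes shared this pattern in part. In casein 6 the mean deviation was 0.31 for complex I, 0.30 for complex II, 0.24 for complex III, 0.14 for complex IV and 0.24 for ATP synthase. In casein 7 it was -0.30, -0.28, -0.32, -0.23 and -0.26. By this mean, casein 6 was the highest array except in complex IV, where soy 157 (0.29) and soy 149 (0.18) stood above it. There casein 6 held the highest value of 2 of the 10 genes. The complex IV means include Cox5a, whose signal of 9.47 in soy 157 and 9.19 in soy 149 lay far above its mean of 8.23. The median deviation of complex IV was 0.18 in soy 157, 0.13 in casein 6 and 0.12 in soy 149, so soy 149 was not above casein 6 by that measure. Casein 7 was the lowest array except in complex II, where soy 147 stood at -0.30. Soy 157, the array with the most Myl11, was also high for ATP synthase (0.21) but stood at 0.02 for complex I and -0.03 for complex II.

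Other measures moved with these arrays, and their part in the pattern was not tested. The 7 luminal epithelial markers bright enough to be tested had their highest mean log2 signal in casein 7 (10.28) and their lowest in casein 6 (6.71), the reverse of the subunits. Their mean was also low in soy 159 (6.86) and soy 149 (7.62), where the subunits stood at 0.09. It was high in casein 18 (9.45) and soy 147 (9.42), where the subunits stood at -0.01 and -0.18. The log2 ratio of the 3' to the 5' probe set of beta-actin is a measure of RNA integrity in which higher means less of the 5' end. It was lowest in casein 10 (0.29), casein 7 (0.38) and casein 6 (0.41). The same ratio of GAPDH was lowest in these arrays too, at 0.18, 0.21 and 0.19.

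Single subunits followed the shared level to different degrees. Uqcrfs1, the Rieske iron-sulfur protein of complex III, read 12.01, 11.94, 11.99, 12.58 and 11.94 in casein 10, 18, 20, 6 and 7 and 11.97, 12.22, 12.14, 12.05 and 12.11 in soy 147, 149, 155, 157 and 159. Casein 6 stood well above the rest, and casein 7 and soy 147 were low. Ndufv1, the core flavoprotein at the NADH site of complex I, read 11.00, 11.00, 11.05, 11.32 and 11.07 in casein and 11.16, 11.04, 11.16, 10.96 and 11.51 in soy. It was highest in soy 159 rather than casein 6, and casein 7 and soy 147 were above its median of 11.06. Cox4i1, the widely expressed form of subunit 4, was low in casein 7 (12.72) and soy 147 (12.77), but its casein 6 value (12.91) lay below its median of 12.98.

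Cox5a, another subunit of complex IV, did not follow the others. Its mean log2 signal was only 8.23, against 11.74 (Cox6b1) to 13.00 (Cox8a) for the other widely expressed subunits of the complex. Whether this low signal bears on the pattern was not tested. The Cox5a probe set read 8.12, 8.00, 8.85, 8.14 and 7.91 in casein 10, 18, 20, 6 and 7 and 7.46, 9.19, 7.15, 9.47 and 7.97 in soy 147, 149, 155, 157 and 159. The soy arrays held both its highest and its lowest values, and soy 155, where most subunits were above their median, was its lowest. Apart from Cox6a2 it had the widest range among the genes tested, 2.33, and it was followed by Cox6c-ps1 (1.32), Uqcr10 (1.12) and Ndufc1 (1.10). Cox6c-ps1 is a pseudogene that shares sequence with Cox6c, so its signal is uncertain.

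None of these genes passed the test for diet. Of 9520 probe sets, 0 passed an adjusted p of 0.05 in limma (Benjamini-Hochberg), 0% of those tested, and 433 (4.55%) had an unadjusted p under 0.05. Of the 81 respiratory genes tested, 0 passed and 4 (4.94%) had an unadjusted p under 0.05, close to the background share. The smallest limma adjusted p among them was 0.98, and their median standard error was 0.129, which limits what 5 arrays per diet can show.

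Small positive differences were common all the same. Soy minus casein was above 0 for 61 of 81 genes (75.3%), against 47.3% of all probe sets, with a median of 0.063 on the log2 scale against -0.010. Because the subunits move together from array to array, these signs are not independent of each other. The mean deviation of the 70 subunits was -0.037 ± 0.214 in casein and 0.037 ± 0.120 in soy (SD, n = 5), so the difference was smaller than the spread within either diet. The count moved with single casein arrays: 42 of the genes tested were positive without casein 7 and 73 without casein 6. Without the 4 arrays of strong Myl11, 73 were positive, with a median of 0.18. That setting kept only soy 155 and soy 159 of the soy arrays. With Myl11 as a covariate 50 were positive (median 0.036), and with the muscle list as a covariate 48 (median 0.035). With the actin ratio as a covariate 41 were positive, with a median of 0.0038. That ratio was 0.46 ± 0.14 in casein and 0.57 ± 0.06 in soy (SD, n = 5, exact two-sided permutation p = 0.15, smallest possible 0.0079).

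**Figure D3:**
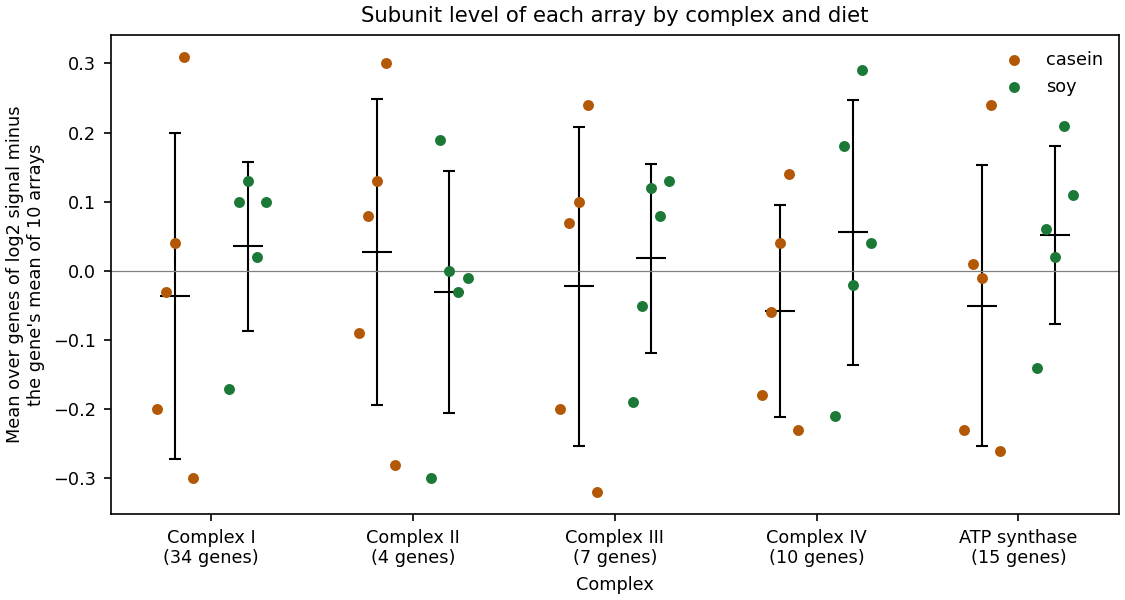
Mean deviation of the widely expressed subunits from their own 10-array means (log2, vertical axis) for each complex (horizontal axis), with 1 point per array and the mean ± SD of 5 arrays per diet. The diets overlap in every complex, and casein 6 and casein 7 lie at the ends of the casein points.

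Complex I takes electrons from NADH. Of its 34 subunits, 26 had positive and 8 negative differences, with a median of 0.056 and a range of -0.08 to 0.27. Ndufb11, a membrane arm subunit, read 11.52, 11.59, 11.71, 11.84 and 11.44 in casein 10, 18, 20, 6 and 7 and 11.73, 11.88, 11.92, 11.99 and 11.81 in soy 147, 149, 155, 157 and 159. Every soy array lay above the casein mean, but casein 6 exceeded 2 of them. Ndufa6 read 10.76, 11.08, 11.25, 11.24 and 10.97 in casein and 11.15, 11.32, 11.34, 11.23 and 11.40 in soy, with casein 20 and casein 6 above soy 147 and soy 157. The differences were 0.25 ± 0.10 for Ndufb11 and 0.23 ± 0.11 for Ndufa6, and neither passed (SE, n = 5 per diet, limma adjusted p = 0.98 for each). Ndufb1, a membrane arm subunit, differed by 0.27 ± 0.14, Ndufs4, an accessory subunit, by 0.15 ± 0.10, and Ndufc1 by 0.21 ± 0.19. The core subunits of the NADH module gave -0.08 ± 0.12 for Ndufs1 and 0.08 ± 0.11 for Ndufv1.

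Complex II, succinate dehydrogenase, also works in the tricarboxylic acid cycle. Its 4 subunits had a median difference of -0.054, with 2 positive and 2 negative. Sdha, the flavoprotein that oxidises succinate, read 11.44, 11.46, 11.83, 11.71 and 11.25 in casein and 11.18, 11.80, 11.25, 11.11 and 11.44 in soy. The diets covered nearly the same range, and the difference was -0.18 ± 0.15, with -0.12 ± 0.16 for the iron-sulfur subunit Sdhb (SE, n = 5 per diet, limma adjusted p = 0.98 and 0.99).

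Complex III passes electrons to cytochrome c. Of its 7 subunits 5 were positive and 2 negative, with a median of 0.054. Uqcrc2, a core protein, read 11.47, 11.38, 11.56, 11.74 and 11.37 in casein and 11.19, 11.35, 11.25, 11.24 and 11.36 in soy. Every soy array lay below every casein array, though soy 159 and casein 7 nearly met. The difference was -0.23 ± 0.09 and did not pass (SE, n = 5 per diet, limma adjusted p = 0.98). All 5 soy arrays lay below all casein arrays for 0.357% of the probe sets tested and above them for 0.441%, and among the 81 genes this held for 1 and 0. Its partner core protein Uqcrc1 gave -0.01 ± 0.13 and Uqcrfs1 0.01 ± 0.13. The small accessory subunits gave 0.24 ± 0.17 (Uqcrq), 0.12 ± 0.23 (Uqcr10) and 0.09 ± 0.13 (Uqcr11).

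Complex IV reduces oxygen. Its 10 widely expressed subunits were all positive, from 0.02 to 0.23, with a median of 0.145. Cox6c read 12.57, 12.66, 12.75, 12.98 and 12.52 in casein and 12.73, 13.06, 12.93, 12.95 and 12.98 in soy. Casein 6 was among the highest arrays and the remaining casein arrays were low, and the difference of 0.23 ± 0.11 did not pass (SE, n = 5 per diet, limma adjusted p = 0.98). Cox4i1 read 12.93, 12.90, 13.03, 12.91 and 12.72 in casein and 12.77, 13.09, 13.08, 13.20 and 13.11 in soy. As for Cox8a, 4 soy arrays lay above all casein arrays and soy 147 lay among the lowest. The differences of the other subunits named were 0.15 ± 0.10 for Cox4i1, 0.15 ± 0.09 for Ndufa4, 0.16 ± 0.15 for Cox7b, 0.07 ± 0.10 for Cox6b1 and 0.04 ± 0.42 for Cox5a. Under quantile normalization the median of the complex was 0.051, and Cox4i1, Cox8a and Cox6a1 turned sign, at -0.001, -0.014 and -0.017.

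ATP synthase had 12 positive and 3 negative differences among 15 subunits, with a median of 0.089 and a range of -0.04 to 0.25. In the catalytic F1 head, the alpha subunit Atp5f1a gave 0.06 ± 0.11 and the beta subunit Atp5f1b 0.16 ± 0.12. Atp5f1e, the epsilon subunit of the central stalk, gave 0.25 ± 0.16, and Atp5mg, membrane subunit g, gave 0.20 ± 0.10 (SE, n = 5 per diet, limma adjusted p = 0.98 for each). A second probe set of Atp5me gave -0.13 where the brightest gave 0.22, so these probe sets disagreed in sign, as did those of Ndufv3 (0.05 and -0.18) and Sdhd (0.01 and -0.02). The second probe sets of Atp5me and Ndufv3 were dim (mean log2 signal 6.55 and 6.98), lay below the filter and were not tested.

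**Figure D4:**
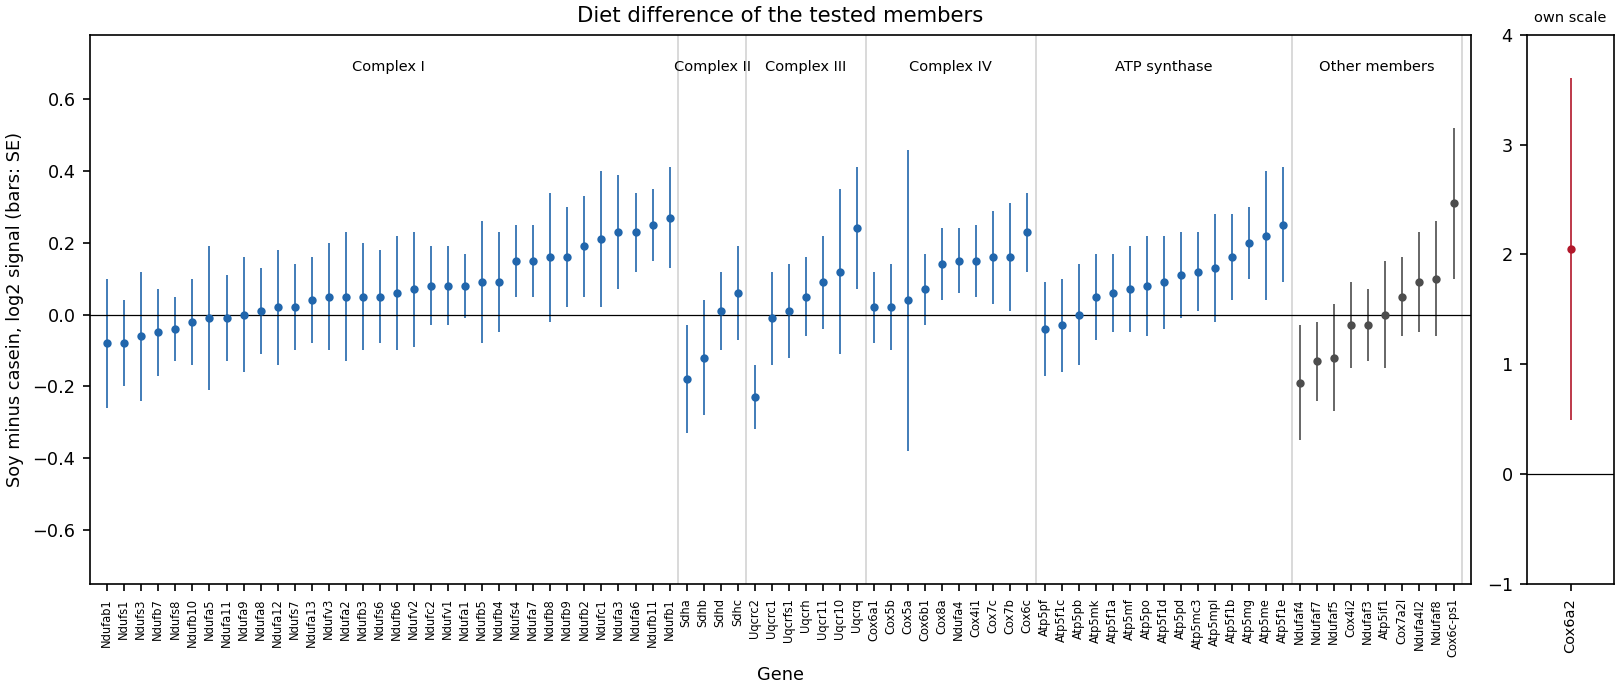
Soy minus casein difference in log2 signal with its standard error (vertical axis) for each tested gene (horizontal axis), grouped by complex, with Cox6a2 on a scale of its own. Most points lie a little above 0, all 10 complex IV subunits among them, and 0 of 81 passed the adjusted test.

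The assembly factors and other proteins that match the symbol rule were mixed in sign, and whether they differ from the subunits was not tested. Of the complex I assembly factors, Ndufaf3, Ndufaf4, Ndufaf5 and Ndufaf7 were negative and Ndufaf8 was positive, from -0.19 ± 0.16 (Ndufaf4) to 0.10 ± 0.16 (Ndufaf8), with a median of -0.116 (SE, n = 5 per diet). Cox7a2l, which helps to join complexes into supercomplexes, gave 0.05 ± 0.11, and Cox6c-ps1 0.31 ± 0.21. Atp5if1, the inhibitor that stops the synthase from consuming ATP, read 9.21, 9.34, 9.16, 8.97 and 9.44 in casein 10, 18, 20, 6 and 7 and 9.52, 9.03, 9.37, 8.81 and 9.39 in soy 147, 149, 155, 157 and 159. It was lowest in soy 157, casein 6 and soy 149 and highest in soy 147 and casein 7, while soy 155 and soy 159 lay above its median and casein 10 below it. Its soy minus casein difference was 0.00 ± 0.15, and its 2 other probe sets, with differences of 0.41 and 1.04, were dim and not tested.

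In lists of neighbouring mitochondrial pathways, 0 of the tested genes passed the adjusted test in limma, and 2, Oxa1l and Dlst, had an unadjusted p under 0.05. Oxa1l was 1 of 28 tested in its list (3.57%) and Dlst 1 of 15 (6.67%), against 4.55% of all probe sets tested. Nothing is read from these counts. Soy minus casein was above 0 for 47.3% of all probe sets, and no difference between these lists and the respiratory genes was tested. Of 28 assembly and insertion factors outside the symbol rule 9 were positive (32.1%) and 19 negative (median -0.035). Among them Oxa1l, which inserts proteins into the inner membrane, gave -0.17 ± 0.08 and Lrpprc, which stabilises mitochondrial messenger RNA, gave -0.18 ± 0.09. Of 15 genes in the tricarboxylic acid cycle list 4 were positive (26.7%) and 11 negative (median -0.049). That list also holds genes of the pyruvate dehydrogenase complex, which is not part of the cycle itself: Pdha1 (-0.01), Pdhb (-0.22) and Pdhx (-0.24), all negative. Within the cycle, Dlst, a subunit of oxoglutarate dehydrogenase, gave -0.29 ± 0.11 and Suclg1, a subunit of succinyl-CoA ligase, gave -0.23 ± 0.12. Coenzyme Q synthesis and electron transfer flavoprotein genes were split 5 positive (41.7%) to 7 negative (median -0.070), with Coq6 at -0.26 ± 0.15 and Coq3 at -0.21 ± 0.11. Each SE here has n = 5 per diet.

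Carriers of the mitochondrial membranes were split 5 to 5 (median 0.008), with the carnitine carrier Slc25a20 at -0.16 ± 0.12 and the ADP/ATP carrier Slc25a5 at 0.11 ± 0.08. Regulators of mitochondrial gene expression were also split 5 to 5 (median 0.004), with Esrrb at 0.32 ± 0.19 and Mterf1 at 0.14 ± 0.11. Cyc1, the cytochrome c1 of complex III that the symbol rule does not reach, gave 0.03 ± 0.13. The array pattern of the subunits recurred in part: the mean deviation in casein 6 was 0.26 for the tricarboxylic acid cycle list, 0.33 for the coenzyme Q list and 0.28 for the carriers. It was 0.11 for the assembly and insertion factors outside the symbol rule and -0.11 for the regulators. In casein 7 and soy 147 the coenzyme Q list stood at -0.16 and -0.10, and the carriers at -0.08 and -0.05. Casein 10, low for the subunits, stood at -0.09 for both of these lists. It stood at only -0.03 for the tricarboxylic acid cycle list and for the assembly and insertion factors. The carriers were lowest in casein 20 (-0.14). The tricarboxylic acid cycle list stood at -0.28 in soy 147 and -0.19 in casein 7, but at -0.13 in soy 157, where ATP synthase and complex IV subunits were high.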

How the data were processed

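The authors deposited 1 table of MAS5 signal intensity, on a linear scale, for 10 arrays and 15923 probe sets, and MAS5 is named per the submitters' processing notes. Its version, settings and detection calls were not given in the sources used here. The trimmed mean (2% from each end) was 500.1 on every array, so no further scaling was applied. A floor of 1 was put on the signals before the log2 step. After 57 control probe sets were removed, 15866 remained, of which 12783 named 1 gene, 312 several and 2771 none in the platform annotation.

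Diets were compared with limma 3.58.1 (R 4.3.3), with intensity trend, two-sided, on the 9520 probe sets with a mean log2 signal at or above the 40th percentile (7.47, or signal 177). P-values were Benjamini-Hochberg adjusted over all of them. The script was tested on simulated data. Lists of genes were described by counts and medians. The members and lists were chosen with earlier results of these data known. Genes named were the tissue isoforms and their partners, core subunits, and those with the smallest p per complex or list, the largest ranges or diets that did not overlap. Alternatives covered filter, pseudocount, scaling, covariates, array weights and left-out arrays.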

Additional observations from a re-analysis of the deposited data

Results flagged for a closer look

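In 116 groups of 5 arrays examined, 10 had an array far from the others of its diet by Dixon's test, which chance does in about 1 in 20 groups. In casein 6, Cox8b stood at 11.73 (other casein arrays 2.51 to 3.83) and Cox7a1 at 8.32 (4.52 to 5.33), both muscle forms of complex IV subunits. In the same array Uqcrfs1 stood at 12.58 (11.94 to 12.01), Ndufv1 at 11.32 (11.00 to 11.07) and the mean deviation of the membrane carriers at 0.28 (-0.14 to -0.03). In soy 147, Cox4i1 stood at 12.77 (other soy arrays 13.08 to 13.20), Cox8a at 12.77 (13.13 to 13.17) and the mean deviation of the 70 widely expressed subunits at -0.18 (0.07 to 0.10). Cox5a stood at 8.85 in casein 20 (7.91 to 8.14), and Slc25a20, the carnitine carrier, at 8.78 in soy 149 (8.31 to 8.43).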

How the results depend on the processing

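With 0 genes and 0 probe sets past the adjusted threshold in limma, no call could be lost, and none was gained in the 25 other settings (433 probe sets had an unadjusted p under 0.05). No paired analysis was possible because the diets share no replicate numbers. Of 45 named genes, 24 kept their sign in every setting. The count of 2 genes led by the 4 arrays of strong Myl11 was 1 with the 60th percentile filter, with median centring, with quantile normalization, and without casein 6 and soy 149. It ran from 1 (without casein 6 or without soy 149) to 10 (without soy 147) when single arrays were left out, with the filter applied anew. Where any of the 4 was left out, only those that remained had to be highest, which is easier to meet. No share over all probe sets was computed for that condition, so nothing is read from these counts. Values of soy minus casein that turned sign follow, and their cause was not tested. With Myl11 as a covariate they were Cox6a2 -0.58, Cox8b -0.78, Cox7a1 -0.20, Cox6b2 0.092, Uqcrfs1 -0.094, Cox5a -0.17, Atp5f1a -0.055 and Cyc1 -0.079. With the muscle list as a covariate they were Cox6a2 -0.11, Cox8b -0.32, Cox6b2 0.081, Uqcrfs1 -0.083, Cox5a -0.19, Atp5f1a -0.04 and Cyc1 -0.073. With the actin ratio they were Uqcr11 -0.052, Cox4i2 0.056, Cox6a1 -0.07 and Uqcr10 -0.18. With array weights Uqcrc1 was 0.10 and Cox5a -0.19, and with median centring Uqcrfs1 was -0.014. With quantile normalization they were Cox4i1 -0.001, Atp5f1b -0.013, Cox6a1 -0.017, Cox8a -0.014, Uqcrfs1 -0.046 and Slc25a5 -0.0065. Without casein 6 and soy 149 Uqcrc1 was 0.076 and Cox5a -0.21. Without the 4 arrays of strong Myl11 they were Sdhb 0.0078, Ndufs1 0.019, Uqcrc1 0.15, Cox5a -0.66, Atp5f1a -0.043 and Suclg1 0.029. Leaving out single arrays gave ranges of -0.014 to 0.12 for Atp5f1a, -0.12 to 0.034 for Cox4i2, -0.27 to 0.32 for Cox5a, -0.02 to 0.093 for Cox6a1, -0.31 to 0.16 for Cox6b2 and -0.031 to 0.12 for Cyc1. They were -0.13 to 0.0074 for Ndufs1, -0.0085 to 0.13 for Ndufv1, -0.21 to 0.0071 for Sdhb, -0.035 to 0.25 for Uqcr10, -0.075 to 0.075 for Uqcrc1 and -0.032 to 0.13 for Uqcrfs1. The members' median ran from 0.0099 without casein 7 to 0.14 without casein 6. By complex it ran from -0.012 to 0.14 (I), -0.13 to 0.039 (II), -0.032 to 0.13 (III), 0.09 to 0.20 (IV) and 0.032 to 0.17 (ATP synthase). Without the 4 arrays of strong Myl11 the medians were 0.18 for all members tested and 0.24, 0.061, 0.16, 0.19 and 0.24 in this order of complexes. With Myl11 as a covariate they were 0.036 and 0.036, -0.089, 0.063, 0.067 and 0.056. With the actin ratio they were 0.0038 and -0.0045, -0.12, -0.059, 0.077 and 0.013, and with quantile normalization 0.045 and 0.059, -0.064, 0.024, 0.051 and 0.048.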

Other observations

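Among the membrane carriers, Slc25a4, the ADP/ATP carrier of heart and muscle, was singled out after its values were seen. It read 11.79, 11.92, 11.85, 13.27 and 11.95 in casein 10, 18, 20, 6 and 7 and 12.30, 12.91, 11.83, 12.90 and 12.08 in soy 147, 149, 155, 157 and 159. Its 4 highest arrays were those with the highest Myl11, and casein 6 was the highest of all, as for Cox6a2, Cox8b and Cox7a1. Across all probe sets tested, 2.14% had these 4 arrays as their highest and 2.15% as their lowest. In the neighbouring lists, Suclg2 of the tricarboxylic acid cycle and the regulator Ssbp1 had them as their lowest. The soy minus casein difference of Slc25a4 was 0.25 ± 0.30 (SE, n = 5 per diet, limma adjusted p = 0.99).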
